A study of Mus musculus with 12 samples.

Results

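The 32 genes described here belong to the enteric nervous system, the network of neurons and glia in the wall of the gut. They were chosen by gene symbol, as neuronal, transmitter and glial genes. The symbols cover 33 of the 35688 gene identifiers in the deposited table, because Foxd3 is listed under 2 identifiers with identical values, and they are made up of 104 transcripts. RNA was taken from the whole colon wall of 2-week-old mice: 6 Il10-/- Tnfr1-/- colons were set against 5 Il10-/- colons. Every mouse was labelled Il10-/-, without a working copy of the gene that encodes interleukin 10, a cytokine that restrains inflammation and whose loss leads to colitis in mice. The Il10-/- Tnfr1-/- mice also lacked TNF receptor 1, encoded by Tnfrsf1a, and no colon with Il10 intact was analysed here. The labels give 1 mouse per sample and neither litter nor sex, so p-values measure only the spread between these samples.

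Enteric neurons sit in a myenteric plexus between the muscle layers and in a submucosal plexus, and drive the contraction and relaxation of the muscle. They and the enteric glia descend from neural crest cells, whose entry into the gut depends on the receptor RET with its ligand GDNF and on endothelin receptor B. Acetylcholine and tachykinins excite the muscle, while nitric oxide and vasoactive intestinal peptide relax it.

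The values are abundances per transcript, divided by transcript length and scaled by the authors, and were summed per gene. Gene positions are on mm10. They are not counts, so sequencing depth and counting error cannot be stated. A library summed to between 804109 and 1378971, with 41.7% to 55.1% of transcripts at 0. Tnfrsf1a was at 12.0 to 17.0 in Il10-/- Tnfr1-/- colons and at 30.6 to 78.1 in Il10-/- colons, without overlap. Il10 still had a signal in every colon, at 3.27 to 7.23 in Il10-/- Tnfr1-/- colons and at 9.06 to 22.9 in Il10-/- colons. Which part of Il10 was removed is not stated in the labels, so its signal checks nothing about them. Sample names begin with a digit, 1 to 4, whose meaning the labels do not give. The digit is 1 for Il10-/- Tnfr1-/- replicates 1 and 2 and for Il10-/- replicates 1, 2 and 3. It is 2 or 3 for the other Il10-/- Tnfr1-/- colons and 4 for Il10-/- replicates 5 and 6. Replicate numbers follow the order of the samples and pair nothing across genotypes. Il10-/- replicate 4 was not analysed here.

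All 32 symbols had a signal in at least 1 colon, so the markers of enteric neurons and glia were present in the samples. Of the 33 identifiers, 28 were above a value of 1 in at least 6 colons and could be tested. Elavl3 and Chat, a neuronal RNA-binding protein and the enzyme that makes acetylcholine, the neuropeptide gene Npy and both Foxd3 identifiers did not reach that level. Per length, the most abundant members over the 11 colons were Stmn2 (mean abundance 63.5), Erbb3 (51.5), Uchl1 (40.6), Tac1 (29.2) and Prph (28.3). The least abundant were Npy (0.226) and Chat (0.318). Fewer neurons or glia and less RNA per cell cannot be told apart in RNA of a whole organ.

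Most neuronal, transmitter and glial genes were highest and lowest in the same few colons, and both ends were Il10-/-. The median centred log2 level over the 28 tested members was 0.20, 0.12, 0.88, 1.92, 0.59 and -0.33 in Il10-/- Tnfr1-/- replicates 1 to 6, against -0.85, -0.44, 2.25, -2.34 and -1.77 in Il10-/- replicates 1, 2, 3, 5 and 6. Il10-/- replicates 1, 2, 5 and 6 thus lay below every Il10-/- Tnfr1-/- colon, and Il10-/- replicate 3 above them all. Il10-/- replicate 3 was the highest of the 11 colons for 22 of the 28 tested members, where 10.7% of all 13293 tested genes had their maximum there. Il10-/- replicate 5 or 6 was the lowest for 26 of the 28, against 31.1% of all tested genes. For 21 of the 28, both the highest and the lowest colon were Il10-/-, against 23.4% of all tested genes. The log2 range within a genotype had a median over the tested members of 2.29 in Il10-/- Tnfr1-/- colons and 4.51 in Il10-/- colons. It was the wider one in Il10-/- colons for 25 of the 28 members and for 61.4% of all tested genes.

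**Figure D1:**
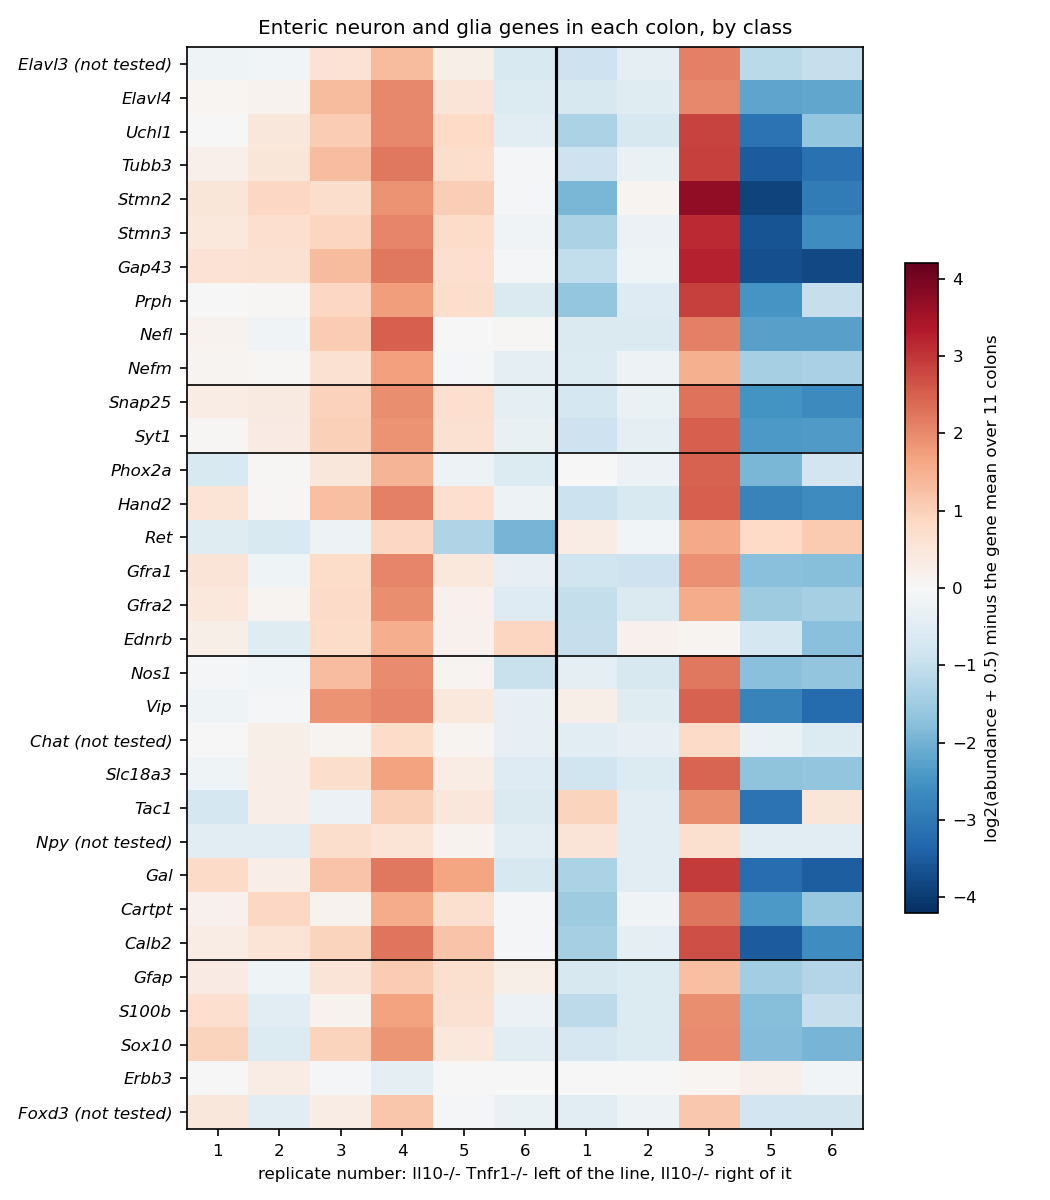
Log2(abundance + 0.5) of the 32 genes, each minus its mean over the 11 colons, with genes in rows by class and colons in columns, Il10-/- Tnfr1-/- on the left. Il10-/- replicate 3 and Il10-/- Tnfr1-/- replicate 4 are red and Il10-/- replicates 5 and 6 blue for most genes, while Ret, Tac1 and Erbb3 break the pattern.

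The genes of neuron identity and structure are given first. Stmn2 (chr3:8509360-8561606), a regulator of microtubules in growing axons, was at 24.8 to 98.3 with a median of 45.9 in the 6 Il10-/- Tnfr1-/- colons, against 6.49, 28.3, 353, 1.30 and 2.97 in Il10-/- replicates 1, 2, 3, 5 and 6. Uchl1 (chr5:66676091-66687234), an abundant neuronal deubiquitinase known as PGP9.5, was at 16.2 to 92.8 with a median of 36.2 in Il10-/- Tnfr1-/- colons, against 8.71, 14.1, 163, 2.19 and 6.92 in Il10-/- colons. In both genes the Il10-/- Tnfr1-/- colons lay inside the Il10-/- range, between Il10-/- replicate 3 at the top and replicates 5 and 6 at the bottom. The 10 genes of this class summed to 112, 137, 187, 379, 167 and 76.0 in Il10-/- Tnfr1-/- replicates 1 to 6, against 32.6, 75.4, 864, 6.74 and 19.7 in Il10-/- replicates 1, 2, 3, 5 and 6. The sum in Il10-/- replicate 3 was thus far above that in any other colon, and Il10-/- replicate 5 was far below.

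The other structural genes were also lowest in Il10-/- replicates 5 and 6, apart from Prph. Prph was lowest in Il10-/- replicate 5, at 2.57, but lower in Il10-/- replicate 1, at 5.07, than in replicate 6, at 8.20. Elavl4, an RNA-binding protein of neurons also called HuD, was at 1.13 to 9.34 in Il10-/- Tnfr1-/- colons, against 9.47 in Il10-/- replicate 3 and 0.0255 and 0.0444 in replicates 5 and 6. Tubb3, the neuronal beta-tubulin, was at 5.98 to 30.9 in Il10-/- Tnfr1-/- colons and at 0.109 to 48.9 in Il10-/- colons. The growth cone protein gene Gap43 was at 6.65 to 34.2 in Il10-/- Tnfr1-/- colons and at 0.0431 to 70.2 in Il10-/- colons. Stmn3, a relative of Stmn2, and Prph, the intermediate filament peripherin of peripheral neurons, also peaked in Il10-/- replicate 3, at 75.5 and 124. The neurofilament genes Nefl and Nefm peaked instead in Il10-/- Tnfr1-/- replicate 4, at 13.7 and 5.02. Their annotated ranges overlap on opposite strands (Nefm, chr14:68082590-68124846, spans Nefl, chr14:68083863-68089095), and no source used here says whether strand was used in quantification, so their reads may be mixed.

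The synaptic genes gave the same picture. Snap25 (chr2:136713453-136782428), a SNARE protein of vesicle fusion, was at 5.28 to 28.8 with a median of 10.6 in Il10-/- Tnfr1-/- colons, against 4.01, 5.82, 36.2, 0.828 and 0.687 in Il10-/- replicates 1, 2, 3, 5 and 6. Syt1 (chr10:108497650-109010982), the calcium sensor of vesicle release, was at 1.73 to 9.83 with a median of 3.43 in Il10-/- Tnfr1-/- colons, against 1.02, 1.58, 15.5, 0.0299 and 0.0392 in Il10-/- colons. The genotypes overlapped fully in both, with Il10-/- colons at each end.

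**Figure D2:**
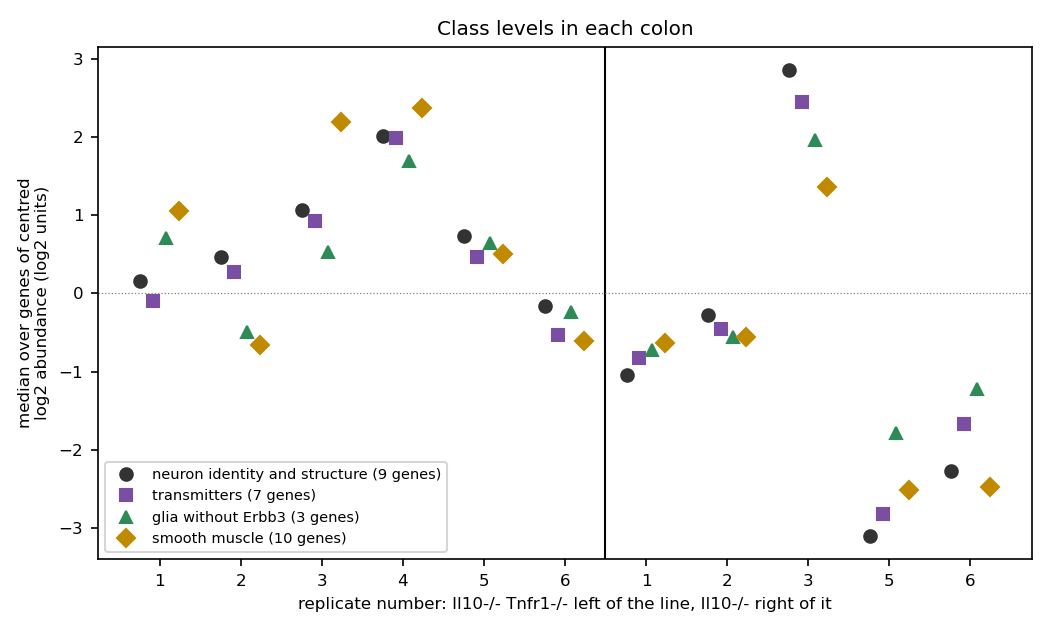
Median over the tested genes of each class of the log2 abundance centred on each gene's mean, in log2 units, for every colon, Il10-/- Tnfr1-/- on the left. Neuron, transmitter and glia classes are lowest in Il10-/- replicates 5 and 6, where the smooth muscle genes are also lowest. On this log2 scale the glial genes are less far from 0 than the neuronal ones in Il10-/- replicates 3, 5 and 6. The scale understates changes of low genes, so this does not show a smaller glial change. In those colons the ratio of the glial sum without Erbb3 to the neuron identity sum lies within the Il10-/- Tnfr1-/- range.

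Among transcription factors and receptors, Hand2 (chr8:57320983-57324633), a factor of enteric neuron differentiation, had its highest and lowest values in the same colons as Stmn2. It was at 5.35 to 28.9 with a median of 10.1 in Il10-/- Tnfr1-/- colons, against 3.13, 3.87, 38.3, 0.485 and 0.588 in Il10-/- replicates 1, 2, 3, 5 and 6. Gfra1 and Gfra2, the co-receptors that bind GDNF and neurturin for RET, were at 1.15 to 8.04 and 1.43 to 10.5 in Il10-/- Tnfr1-/- colons, against 0.10 to 7.40 and 0.496 to 7.89 in Il10-/- colons. Phox2a, a factor of autonomic neurons, was at 1.08 to 6.13 in Il10-/- Tnfr1-/- colons and at 0.161 to 13.2 in Il10-/- colons, with medians of 1.88 and 1.60.

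Ret (chr6:118151745-118197718), the GDNF receptor kinase, did not follow the other neuronal genes and had a lower mean in Il10-/- Tnfr1-/- colons. It was at 2.00 to 17.0 with a median of 6.02 in Il10-/- Tnfr1-/- colons, against 11.5, 8.36, 28.7, 16.7 and 20.2 in Il10-/- replicates 1, 2, 3, 5 and 6. Il10-/- Tnfr1-/- replicate 4 alone lay above the lowest Il10-/- colon, and Il10-/- replicates 5 and 6, the colons with almost no Elavl4 or Gfra1, were among the 4 highest for Ret. The log2 fold change was -1.36 ± 0.45 (SE) with a limma p of 0.0104, an adjusted p of 0.535 over all tested genes and an exact two-sided permutation p of 0.0281, which is not adjusted. It was therefore not called. Against Gfra1, Ret stood at a ratio of 1.52 to 4.25 in Il10-/- Tnfr1-/- colons, and at 17.0, 13.1, 3.88, 141 and 202 in Il10-/- replicates 1, 2, 3, 5 and 6. Ret is known in the gut outside neurons as well, in some immune cells among others, and which cells carried it here was not tested.

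The lower Ret mean lay on 1 of its protein-coding transcripts. ENSMUST00000088790.8, which encodes 1073 residues, was at 1.07 to 8.63 with a median of 3.89 in Il10-/- Tnfr1-/- colons, against 8.47, 6.36, 21.4, 14.9 and 19.1 in Il10-/- replicates 1, 2, 3, 5 and 6. Again Il10-/- Tnfr1-/- replicate 4 alone overlapped the Il10-/- range. Its log2 fold change was -1.80 ± 0.46 (SE), with a limma p of 0.00234 and an adjusted p of 0.635 over all tested transcripts. ENSMUST00000032201.7, which encodes 1115 residues, was at 0.930 to 8.39 in Il10-/- Tnfr1-/- colons and at 1.11 to 7.29 in Il10-/- colons (log2 fold change -0.01 ± 0.51, SE). The shorter form made up 55.4% of the mean Ret abundance in Il10-/- Tnfr1-/- colons and 82.1% in Il10-/- colons. Since the forms share most of their sequence, the division of reads between them is uncertain.

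Ednrb (chr14:103814625-103844402), the endothelin receptor needed by neural crest cells, had a higher mean in Il10-/- Tnfr1-/- colons. It was at 2.70 to 12.4 with a median of 6.06 in Il10-/- Tnfr1-/- colons, against 1.81, 4.66, 4.35, 2.23 and 0.845 in Il10-/- replicates 1, 2, 3, 5 and 6. The genotypes overlapped through Il10-/- Tnfr1-/- replicate 2 and Il10-/- replicates 2 and 3, and Il10-/- replicate 3 was not the highest colon here. The log2 fold change was 1.15 ± 0.41 (SE), with a limma p of 0.0155, an adjusted p of 0.535 and an exact two-sided permutation p of 0.026. Among the colons whose names begin with 1 it was 0.10. Ednrb is also expressed by cells outside the nervous system.

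**Figure D3:**
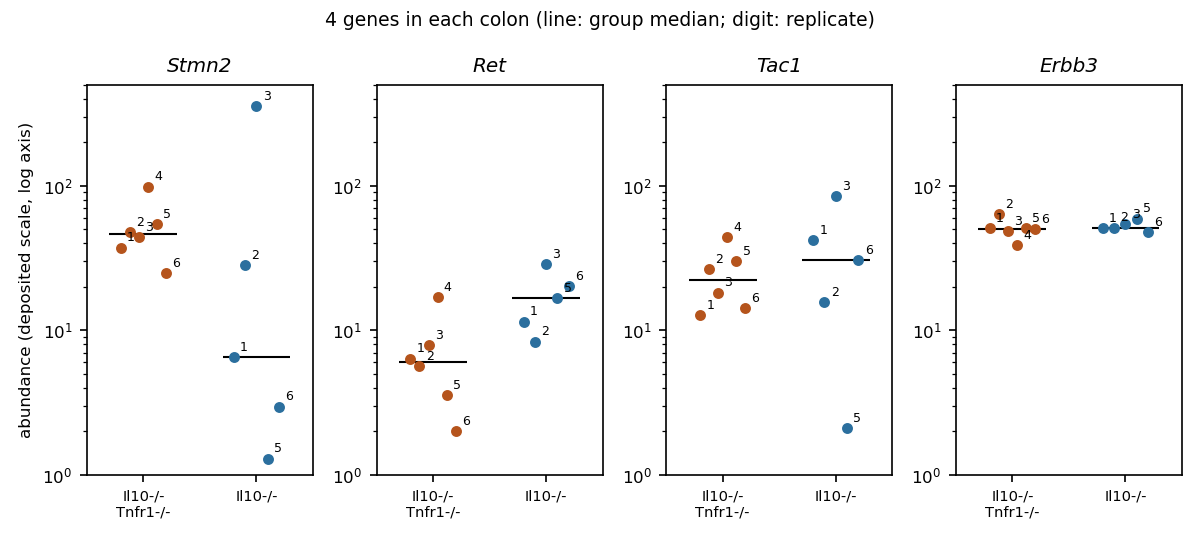
Abundance of Stmn2, Ret, Tac1 and Erbb3 in every colon on a log axis, Il10-/- Tnfr1-/- left of Il10-/-, with replicate numbers and group medians as lines. Stmn2 spans 1.30 to 353 in Il10-/- colons, Ret is at 8.36 or above in all of them, and Erbb3 stays between 39.0 and 63.7 in all 11 colons.

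The 7 tested transmitter genes were all highest in Il10-/- replicate 3 and lowest in Il10-/- replicate 5 or 6. Calb2 (chr8:110137502-110168210), the calcium-binding protein calretinin of excitatory and sensory neurons, was at 9.10 to 46.5 with a median of 16.3 in Il10-/- Tnfr1-/- colons, against 3.27, 6.86, 64.0, 0.368 and 1.11 in Il10-/- replicates 1, 2, 3, 5 and 6. Gal, the gene of the neuropeptide galanin, was at 4.41 to 35.7 in Il10-/- Tnfr1-/- colons and at 0.205 to 60.1 in Il10-/- colons. Nos1, the neuronal nitric oxide synthase, was at 0.567 to 7.54 in Il10-/- Tnfr1-/- colons and 0.0918 to 8.90 in Il10-/- colons. Vip, the vasoactive intestinal peptide gene, was at 4.99 to 28.1 in Il10-/- Tnfr1-/- colons and at 0.237 to 38.2 in Il10-/- colons. The ratio of Vip to Nos1 was 3.72 to 8.80 in Il10-/- Tnfr1-/- colons and 1.79 to 7.48 in Il10-/- colons.

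Cholinergic genes were low. Slc18a3, which loads acetylcholine into vesicles, was at 0.707 to 5.09 in Il10-/- Tnfr1-/- colons and at 0.0410 to 9.09 in Il10-/- colons. Chat was at 0.111 to 0.830 in Il10-/- Tnfr1-/- colons and at 0.0223 to 0.846 in Il10-/- colons. Slc18a3 (chr14:32462438-32464850) lies inside the annotated range of Chat (chr14:32408203-32465989) on the same strand, so reads may be shared between them. Cartpt, the gene of the CART neuropeptide, was at 2.44 to 8.48 in Il10-/- Tnfr1-/- colons and at 0.0722 to 13.7 in Il10-/- colons. Npy was listed at 0 in 3 colons of each genotype and did not exceed 0.626.

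Tac1 (chr6:7554879-7565834), the gene of substance P and neurokinin A, was at 12.7 to 44.3 with a median of 22.3 in Il10-/- Tnfr1-/- colons, against 42.1, 15.7, 84.5, 2.10 and 30.7 in Il10-/- replicates 1, 2, 3, 5 and 6. Il10-/- replicates 1 and 6, low for most other neuronal genes, were not low for Tac1. Neither was low for Ret. Il10-/- replicate 1 was also above the Il10-/- Tnfr1-/- median for Vip, at 7.75 against 7.53, and for Phox2a, at 1.97 against 1.88. The ratio of Tac1 to Stmn2 was 0.340 to 0.572 in Il10-/- Tnfr1-/- colons, against 6.49, 0.554, 0.239, 1.62 and 10.4 in Il10-/- replicates 1, 2, 3, 5 and 6. Tac1 is also a product of some enteroendocrine cells of the epithelium. The 13 enteroendocrine genes summed to 465 to 769 in Il10-/- Tnfr1-/- colons and to 293 to 867 in Il10-/- colons, with 431 and 310 in Il10-/- replicates 1 and 6. Their part in the Tac1 values was not tested. The log2 fold change of Tac1 was 0.06 ± 0.72 (SE), and its sign turned under 9 of the other settings.

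The stretches of 250 bases before the RefSeq start sites of Vip, Cartpt and Tac1 are printed because Vip and Cartpt were low in both Il10-/- replicates 5 and 6 while Tac1 was low in replicate 5 alone. They come from RefSeq on GRCm38.p6, in which 22 of the 32 symbols have a window. Capitals mark the cyclic AMP response element core TGACGTC, with an A after it where the palindrome is complete, the TATA box TATAAA and the E-box CACGTG, searched on both strands.
Vip, chr10:5638968-5639217, plus strand: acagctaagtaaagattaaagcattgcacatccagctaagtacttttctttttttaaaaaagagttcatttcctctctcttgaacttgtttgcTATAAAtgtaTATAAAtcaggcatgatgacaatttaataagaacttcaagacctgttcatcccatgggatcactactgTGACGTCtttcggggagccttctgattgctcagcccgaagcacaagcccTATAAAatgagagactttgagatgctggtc
Cartpt, chr13:99900684-99900933, minus strand: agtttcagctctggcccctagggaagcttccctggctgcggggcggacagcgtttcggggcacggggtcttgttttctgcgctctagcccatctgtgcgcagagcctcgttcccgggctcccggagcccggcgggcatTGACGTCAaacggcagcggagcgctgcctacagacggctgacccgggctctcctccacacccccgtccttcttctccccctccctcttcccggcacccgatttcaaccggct
Tac1, chr6:7554811-7555060, plus strand: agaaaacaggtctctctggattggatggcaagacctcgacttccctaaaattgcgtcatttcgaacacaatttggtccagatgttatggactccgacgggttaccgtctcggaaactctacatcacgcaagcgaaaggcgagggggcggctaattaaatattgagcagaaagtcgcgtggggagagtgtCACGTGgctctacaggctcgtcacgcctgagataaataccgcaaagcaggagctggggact
TGACGTC stood in 3 of the members' 26 windows, those of Cartpt, Foxd3 and Vip, and in 2.78% of all 32851 windows. In Vip it began 79 bases before the start site and in Cartpt 112 bases before it, as part of the palindrome. TATAAA stood in the windows of Elavl3, Prph and Vip and in 12.4% of all windows, with 1 copy in Vip 30 bases before the start site. CACGTG stood in the windows of Chat, Foxd3 and Tac1 and in 6.02% of all windows, 61 bases before the start site in Tac1. By the GENCODE gene positions given elsewhere here, the whole Cartpt window lies inside the gene (chr13:99898489-99901091). Most of the Tac1 window, with its E-box, also lies inside the gene, which begins at chr6:7554879. These matches describe the letters alone, and the motifs were chosen with the sequences in view.

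Glial genes split between Erbb3 and the rest. Sox10 (chr15:79154908-79165240), the transcription factor that maintains glia and their progenitors, was at 1.02 to 7.69 with a median of 3.20 in Il10-/- Tnfr1-/- colons, against 0.886, 1.04, 8.44, 0.144 and 0.0838 in Il10-/- replicates 1, 2, 3, 5 and 6. Gfap (chr11:102887336-102900912), the glial intermediate filament, was at 0.796 to 2.58 with a median of 1.5 in Il10-/- Tnfr1-/- colons, against 0.419, 0.501, 3.08, 0.0370 and 0.129 in Il10-/- colons. All 6 Il10-/- Tnfr1-/- colons lay above every Il10-/- colon but replicate 3 for Gfap, and nearly so for Sox10. The log2 fold change of Gfap was 0.97 ± 0.44 (SE), with a limma p of 0.0472, an adjusted p of 0.535 and an exact two-sided permutation p of 0.0758. S100b, a calcium-binding protein of glia, was at 0.896 to 5.85 in Il10-/- Tnfr1-/- colons and at 0.0706 to 7.16 in Il10-/- colons. Foxd3, a factor of neural crest progenitors, did not exceed 1.46 in any colon.

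The glial sum without Erbb3 was 2.17 to 8.38 per 100 of the neuron identity sum in Il10-/- Tnfr1-/- colons and 2.49 to 6.05 in Il10-/- colons, so this ratio overlapped between the genotypes. The glial sum itself ran from 2.96 to 19.0 in Il10-/- Tnfr1-/- colons and from 0.252 to 21.5 in Il10-/- colons. Il10-/- Tnfr1-/- replicates 1 and 2, with neuron sums of 112 and 137, had glial sums of 9.35 and 2.96.

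Erbb3 (chr10:128567523-128589652), a neuregulin receptor of glial precursors that epithelium also carries, was nearly level. It was at 39.0 to 63.7 with a median of 50.4 in Il10-/- Tnfr1-/- colons, against 50.9, 51.3, 54.3, 59.2 and 47.7 in Il10-/- replicates 1, 2, 3, 5 and 6. The colons with the least Sox10 had as much Erbb3 as the others, and the log2 fold change was -0.07 ± 0.14 (SE). The 8 epithelial marker genes summed to 5409 to 17637 in Il10-/- Tnfr1-/- colons and to 6636 to 13108 in Il10-/- colons, and their part in the Erbb3 values was not tested.

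Several neuronal genes were carried largely by non-coding transcripts, and their share differed between colons in a way that genotype did not follow. Of Stmn2, ENSMUST00000194307.1, a processed transcript of 2 exons and 308 bases at the 3′ end of the gene, made up 70.3%, 68.1%, 32.4%, 37.3%, 66.6% and 66.8% in Il10-/- Tnfr1-/- replicates 1 to 6, against 17.2%, 74.9%, 74.3%, 84.4% and 82.7% in Il10-/- replicates 1, 2, 3, 5 and 6. Of Gap43, the processed transcript ENSMUST00000125187.1 made up 4.18% to 55.2% in Il10-/- Tnfr1-/- colons, against 8.66%, 67.8%, 66.0%, 15.0% and 0.0% in Il10-/- replicates 1, 2, 3, 5 and 6, where Gap43 as a whole was at 0.0808 and 0.0431 in replicates 5 and 6. Of Uchl1, the retained-intron transcript ENSMUST00000176015.4 made up 56.8% to 78.5% in Il10-/- Tnfr1-/- colons and 49.6% to 92.9% in Il10-/- colons. In all 3 genes the shares in Il10-/- Tnfr1-/- replicates 3 and 4 and Il10-/- replicate 1 were the lowest among the 9 colons outside Il10-/- replicates 5 and 6. Those 3 colons also had the fewest transcripts at 0, at 42.1%, 41.7% and 43.2%, against 46.7% or more elsewhere. Short transcripts weigh heavily in values divided by length, and RNA quality or read position along the transcripts cannot be seen in these values and was not tested.

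**Figure D4:**
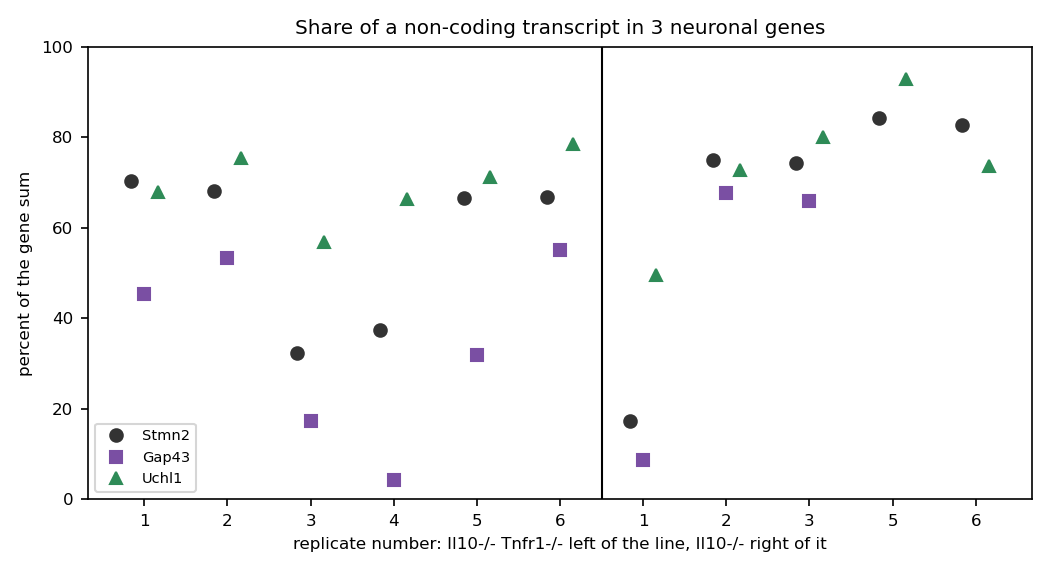
Percent of the summed abundance of Stmn2, Gap43 and Uchl1 that lay on 1 non-coding transcript, for every colon with a gene sum of at least 0.5, Il10-/- Tnfr1-/- on the left. Il10-/- Tnfr1-/- replicates 3 and 4 and Il10-/- replicate 1 have the lowest shares of Stmn2, at 32.4%, 37.3% and 17.2%.

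On protein-coding transcripts alone, the lead of Il10-/- replicate 3 shrank. The coding transcript of Stmn2, ENSMUST00000029002.8, was at 61.6 in Il10-/- Tnfr1-/- replicate 4 and at 90.4 in Il10-/- replicate 3, and that of Gap43, ENSMUST00000102817.4, at 32.8 and 23.9. The coding sum of the 10 neuron identity genes was 42.9 to 279 in Il10-/- Tnfr1-/- colons, against 26.6, 39.4, 419, 3.40 and 10.8 in Il10-/- replicates 1, 2, 3, 5 and 6. Il10-/- replicate 5 or 6 remained the lowest colon for 26 of the 28 tested members, and Il10-/- replicate 3 was the highest for 20.

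Sox10 was divided between 2 transcripts that encode the same 466 residues. ENSMUST00000230532.1 was at 2.27, 0.661, 3.77, 3.97, 0.469 and 0.497 in Il10-/- Tnfr1-/- replicates 1 to 6, against 0.391 and 0.589 in Il10-/- replicates 1 and 2, and was listed at 0 in Il10-/- replicates 3, 5 and 6. In Il10-/- replicate 3 the whole 8.44 of Sox10 lay on ENSMUST00000040019.4. The authors' deposited table gives ENSMUST00000230532.1 a log2 fold of 3.57 with a q-value of 0.684. In the authors' deposited table, 24 of the 49 member transcripts with a p-value had one under 0.05, 23 of them with a log2 fold above 0, where 6.83% of all 43192 transcripts with a p-value had one under 0.05. None of the 49 had a q-value under 0.05 in the authors' deposited table. Both Foxd3 rows, with identical values, are among the 24. Which colons entered the authors' comparison is not stated, and they may not be those used here. Their fold for the Calb2 transcript ENSMUST00000003754.7 was 1.6, where its means here were 20.2 in Il10-/- Tnfr1-/- and 15.1 in Il10-/- colons. The authors' counts and those of limma are thus not alike in test and perhaps not in samples. Limma on the deposited abundances tested 35 member transcripts and called 0, with 2 at an unadjusted p under 0.05, one of Ret and one of Ednrb, where 6.31% of all 26074 tested transcripts had such a p.

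Across genotypes, 26 of the 28 tested members had a higher log2 mean in Il10-/- Tnfr1-/- colons and 2, Ret and Erbb3, a lower one, where 55.2% of all tested genes had a higher one. Of the 26, 25 also had a higher median. The median log2 fold change was 1.23, beside 0.05 over all tested genes. Without the filter on low values, 31 of the 33 identifiers had a higher log2 mean. Limma with Benjamini-Hochberg adjustment called 0 of the 28, as it called 0.0% of all tested genes, and the smallest adjusted p of a member was 0.535. Tnfrsf1a, whose values did not overlap between the genotypes, was not called either. Its log2 fold change was -1.60 ± 0.22 (SE), with a limma p of 9.24e-06 and an adjusted p of 0.123. At an unadjusted p under 0.05 there were 2 higher members, Ednrb and Gfap, and 1 lower member, Ret, where 4.81% of all tested genes were higher and 3.6% lower at that level. No member separated the genotypes, which 0.316% of all tested genes did as higher and 0.271% as lower. By class, the median was 1.44 for the 9 tested genes of neuron identity and structure, 1.37 for both synaptic genes, 1.11 for the 6 transcription factor and receptor genes, 1.24 for the 7 tested transmitter genes and 0.94 for the 4 tested glial genes. Differences between classes were not tested.

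The log2 fold changes were 1.81 ± 1.08 for Stmn2, 1.44 ± 0.84 for Uchl1, 1.44 ± 0.77 for Snap25, 1.92 ± 0.89 for Calb2, 1.64 ± 0.82 for Hand2 and 1.14 ± 0.67 for Sox10 (SE), members among the 2 most abundant of their class. For 6 of the 26 members, Stmn2, Stmn3, Gap43, Prph, Phox2a and Tac1, the mean on the deposited scale was lower in Il10-/- Tnfr1-/- colons although the log2 mean was higher. Stmn2 averaged 51.1 ± 25.2 (SD, n = 6) in Il10-/- Tnfr1-/- colons and 78.4 ± 154 (SD, n = 5) in Il10-/- colons, where 1 colon held most of the sum.

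The size of the members' median depended on which colons were used. Without Il10-/- replicates 5 and 6, whose names begin with 4, an alternative added after seeing the data, 22 of 28 members were higher with a median of 0.26, where 53.2% of all genes were higher. Among the 2 Il10-/- Tnfr1-/- and 3 Il10-/- colons whose names begin with 1, which leaves out 4 of the 6 Il10-/- Tnfr1-/- colons as well, 9 of 26 tested members were higher with a median of -0.06, where 43.7% of all genes were higher. The digit 4 occurs in Il10-/- colons alone, so it and genotype cannot be told apart there. Without Il10-/- replicate 3, in turn, 20 of 24 tested members were higher at an unadjusted p under 0.05, against 7.2% of all genes, with a median of 2.01 and a smallest adjusted p of 0.263. That colon is named because it was the highest for most members, so a rise without it follows from the choice. The members moved together, so the 20 are not separate results. Ret kept a lower mean in each of these fits, at -1.21, -1.17 and -1.15.

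Smooth muscle genes, which mark the layers that hold the myenteric plexus, were low in the same colons. Their 10 tested genes all had a higher log2 mean in Il10-/- Tnfr1-/- colons, with a median of 1.79, 9 at an unadjusted p under 0.05 and 0 called. Actg2, the enteric smooth muscle actin, was at 213 to 2623 with a median of 803 in Il10-/- Tnfr1-/- colons, against 170, 186, 964, 28.6 and 37.4 in Il10-/- replicates 1, 2, 3, 5 and 6. Myh11, the smooth muscle myosin heavy chain, was at 47.0 to 434 with a median of 145 in Il10-/- Tnfr1-/- colons, against 49.3, 60.2, 201, 10.8 and 12.0 in Il10-/- colons. The 10 genes summed to 2856, 858, 8021, 7177 and 2170 in Il10-/- Tnfr1-/- replicates 1 to 5 and to slightly less than replicate 2 in replicate 6, against 893, 836, 3506, 185 and 201 in Il10-/- replicates 1, 2, 3, 5 and 6. Both kinds of gene were thus lowest in Il10-/- replicates 5 and 6, while the muscle sum was highest in Il10-/- Tnfr1-/- replicate 3 and the neuron sum in Il10-/- replicate 3.

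The neuron identity sum per 100 of smooth muscle was 3.91, 15.9, 2.33, 5.29, 7.72 and 9.16 in Il10-/- Tnfr1-/- replicates 1 to 6, against 3.65, 9.02, 24.6, 3.64 and 9.80 in Il10-/- replicates 1, 2, 3, 5 and 6. On this ratio Il10-/- replicates 5 and 6 lay within the range of the Il10-/- Tnfr1-/- colons, and Il10-/- replicate 3 above it. With the smooth muscle level as a covariate, 5 of 28 members were higher with a median of -0.19, where 44.1% of all genes were higher, and Ret was at -1.90. That level, a mean centred log2 value, itself went with genotype. It was at -0.68 to 2.32 in Il10-/- Tnfr1-/- colons and at -2.62 to 1.27 in Il10-/- colons. This fit therefore cannot tell smooth muscle level and genotype apart.

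**Figure D5:**
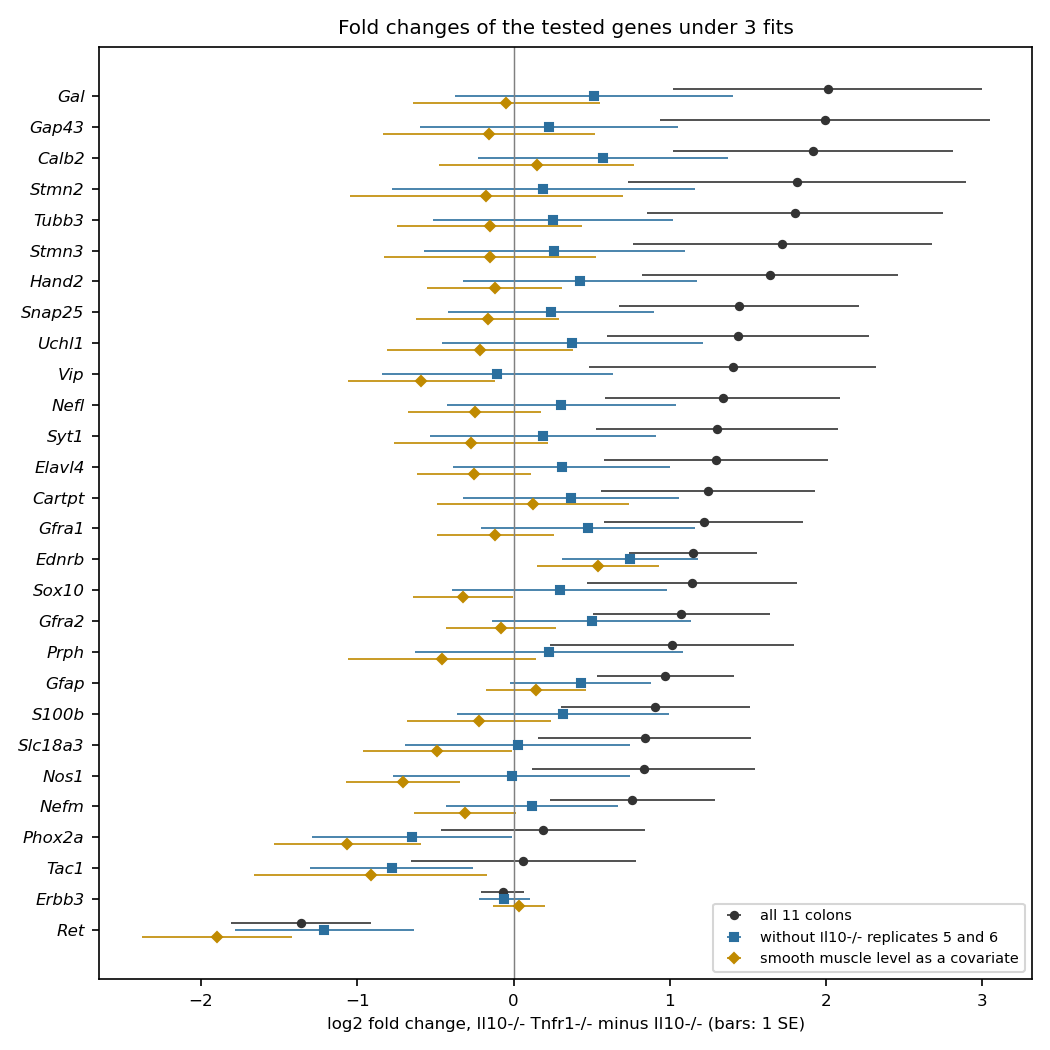
Log2 fold changes of the 28 tested members, Il10-/- Tnfr1-/- minus Il10-/-, with bars of 1 SE, over all 11 colons, without Il10-/- replicates 5 and 6, and with the smooth muscle level as a covariate. Most members lie above 0 over all colons and near 0 in the other fits, while Ret lies below 0 in all 3. The smooth muscle level itself went with genotype, so the fit with it cannot tell them apart.

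Fibroblast genes, of the same wall, were higher in 7 of 7 tested members with a median of 0.89, 2 at an unadjusted limma p under 0.05. Epithelial genes were higher in 1 of 8 with a median of -0.21. Enteroendocrine genes, which share secretory granule genes with neurons, were higher in 9 of 11 with a median of 0.95. Of these 11, 5 were higher at an unadjusted limma p under 0.05, where 4.81% of all tested genes were. Of 4 interstitial cell of Cajal genes 3 were tested, 2 of them higher. Of the 6 Schwann cell myelin genes 2 were tested, both higher, 1 of them at an unadjusted p under 0.05. All 4 macrophage genes were higher with a median of 0.22, 3 of 4 tested endothelial genes with a median of 0.60 and both tested adipocyte genes with a median of 0.80, and none of these lists had a called gene. No mesothelial gene of 4 could be tested. Of 5 skeletal muscle genes 2 were tested, both higher with a median of 1.37, 1 of them at an unadjusted p under 0.05. The skeletal muscle genes summed to 8.46 to 90.7 in Il10-/- Tnfr1-/- colons and to 3.71 to 45.2 in Il10-/- colons, with 3.71 and 5.32 in Il10-/- replicates 5 and 6, while Myh4 among them was at 0 in every colon. Their part in the members' values was not tested.

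Of 92 further enteric nervous system genes listed, 54 identifiers could be tested. Of these, 50 had a higher and 4 a lower log2 mean in Il10-/- Tnfr1-/- colons, where 55.2% of all tested genes had a higher one. Limma called 0 of the 54. At an unadjusted limma p under 0.05 there were 2, both higher, where 4.81% of all tested genes were higher at that level. The median log2 fold change of the 54 was 0.79. The smallest p belonged to Scg3, a granule protein of neurons and endocrine cells, at 3.64 to 18.6 in Il10-/- Tnfr1-/- colons and 0.540 to 16.5 in Il10-/- colons. The transcription factor gene Meis1 was at 2.41 to 14.4 in Il10-/- Tnfr1-/- colons and 0.529 to 6.37 in Il10-/- colons. Next came Gas7, at 1.68 to 6.59 in Il10-/- Tnfr1-/- colons and 1.01 to 3.5 in Il10-/- colons, and the granule protein gene Scg2, at 5.72 to 42.5 in Il10-/- Tnfr1-/- colons and 0.149 to 38.0 in Il10-/- colons.

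The most abundant of these further genes was Sst, the somatostatin gene of neurons and endocrine cells, at 16.3 to 162 in Il10-/- Tnfr1-/- colons, against 9.58, 54.2, 365, 4.34 and 2.12 in Il10-/- replicates 1, 2, 3, 5 and 6. Penk, the enkephalin precursor, was at 8.50 to 61.2 in Il10-/- Tnfr1-/- colons, against 6.42, 15.3, 102, 2.87 and 1.48 in Il10-/- colons. The small heat shock protein gene Cryab was at 13 to 74.8 in Il10-/- Tnfr1-/- colons and at 1.64 to 69.6 in Il10-/- colons. All of these were lowest in Il10-/- replicate 6, and Sst and Penk were highest in Il10-/- replicate 3. Vamp2, a SNARE protein that many cell types use, was level as Erbb3 was, at 35.3 to 65.4 in Il10-/- Tnfr1-/- colons and 43.1 to 68.0 in Il10-/- colons.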

How the data were processed

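Libraries were prepared by the submitters from homogenized colons as stranded mRNA and read as single ends, per the labels. CASAVA, kallisto and sleuth are named without versions, and the build mm10, per the submitters' processing notes. The deposited table gives each transcript an abundance per library, a never-negative signal that the authors divided by length and scaled. The deposited table also holds the authors' comparison of the genotypes: a p-value and q-value, a fold (a ratio) and its log2. A further deposited column, the authors' mean on the natural log scale, was not used. Of 12 samples, 11 matched a column, and 1 column of per-sample values matched no label and was not used.

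The first row of each repeated transcript was kept (866 dropped), and 113193 transcripts were summed per gene. Genes over 1 in at least 6 colons were fitted with limma 3.58.1 (R 4.3.3, intensity trend, robust) on log2(value + 0.5), with Benjamini-Hochberg adjustment at 0.05. Fold changes are Il10-/- Tnfr1-/- minus Il10-/- on this scale and understate those of low genes. With 5 Il10-/- colons, a gene over 1 in these alone was left out. In simulated data of 13293 genes, 40.0%, 74.0% and 76.5% of genes changed by a log2 fold of 1, 2 and 3 were called. The changed genes were 200 drawn at random, with noise independent between genes. These shares therefore do not give the recovery of the members, which moved together and whose SE reached 1.08, for Stmn2. In the measured values even Tnfrsf1a, at a log2 fold change of -1.60, was not called. Exact permutation p-values cover 462 assignments, with 0.00216 the smallest they can give. Coordinates and transcript classes come from GENCODE M21, which held 96.6% of the transcript identifiers. Values are per colon for the 3 members of smallest p and the most abundant of each class, and ranges for the others. Alternatives changed the filter, the pseudocount, the scaling, the colons and the covariates. Members, lists and this rule were chosen with earlier results of these data known.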

Additional observations from a re-analysis of the deposited data

Results flagged for a closer look

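In 3 of 56 sets of values tested for a sample far from the others, 1 colon stood apart, and chance flags about 1 in 20 groups. Il10-/- replicate 3 was far above the other Il10-/- colons on the log2 scale for Gfra1, at 7.40, for Gfra2, at 7.89, and for Slc18a3, at 9.09. The gap to the nearest colon was 0.739, 0.716 and 0.729 of the whole range.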

How the results depend on the processing

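Limma called 0 members and 0 member transcripts in every setting run, and Ret kept a lower mean throughout. The median log2 fold change of the tested members turned to -0.055 with the first digit of the sample name as a covariate, to -0.064 among names that begin with 1 and to -0.19 with the smooth muscle level as a covariate. The first digit as a covariate leaves only the colons whose names begin with 1 to compare genotypes, as each other digit occurs in a single genotype. Both fits on the first digit are therefore the same contrast and not separate checks. In both fits on the first digit, Uchl1 was at -0.052, Snap25 at -0.070, Syt1 at -0.22, Hand2 at -0.0036, Tac1 at -1.04, Erbb3 at 0.12, Sox10 at -0.059 and Phox2a at -1.03. With the smooth muscle level, Stmn2 was at -0.17, Uchl1 at -0.21, Snap25 at -0.17, Syt1 at -0.27, Hand2 at -0.12, Tac1 at -0.92, Erbb3 at 0.036, Sox10 at -0.32 and Phox2a at -1.06. Without both Il10-/- colons whose names begin with 4, Tac1 was at -0.78 and Phox2a at -0.65. Erbb3 was at 0.072 with an equal total per sample and Tac1 at -0.0041 with median-ratio size factors. Leaving out 1 colon at a time, Tac1 lay between -0.70 and 0.56, Phox2a between -0.26 and 0.83, Erbb3 between -0.14 and 0.001, and the members' median between 0.87 without Il10-/- replicate 5 and 2.01 without Il10-/- replicate 3. Between 0 and 2 of all genes were then called, the 2 without Il10-/- replicate 2. The cause of these shifts was not tested. Summing protein-coding transcripts alone, added after seeing the data, left the median at 1.23, and its range over pseudocounts was 0.95 to 1.69. No paired analysis was possible because the labels carry no replicate numbers. The count-based tools planned for estimated counts were not run because the values are not counts. Unknown depth limits what the values near 0 can show.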
